A study of Mus musculus with 14 samples.

Results

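Astrocyte cultures without connexin43, with connexin43 knocked down, and of wild type were compared for the genes that hold the cell cycle: 10 genes chosen by name, the cyclin-dependent kinase (CDK) inhibitors Cdkn1a, Cdkn1b, Cdkn1c, Cdkn2a, Cdkn2b and Cdkn2c, the tumour suppressor gene Trp53 and the p53 targets Mdm2, Ccng1 and Gadd45a. Of the 10, 9 genes had a probe named in the probe table, with 10 probes among the 33600 on the array (18179 of which carry 1 gene symbol), and Trp53 was not analysed here. Of the 9 genes, 7 had enough values to be tested and 5 had a value in every sample used.

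CDK inhibitors of the Cip/Kip family (Cdkn1a, Cdkn1b, Cdkn1c) bind cyclin-CDK complexes broadly, while those of the INK4 family (Cdkn2a, Cdkn2b, Cdkn2c) bind CDK4 and CDK6 and keep the retinoblastoma protein active. The protein p53, stabilised by stress and DNA damage, switches on Cdkn1a, Mdm2, Ccng1 and Gadd45a. Mdm2 in turn marks p53 for breakdown, which closes a feedback loop. Newborn astrocytes divide in culture until they become confluent, and these inhibitors are among the brakes on that growth.

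RNA came from mouse cortical astrocytes in primary culture, prepared from brains removed within the first hour after birth, grown to confluence and passaged once. The null samples (4) came from mice without Cx43, the gap junction protein encoded by Gja1, and the allele is not described in the labels. The siRNA samples (4) came from confluent wild-type cultures transfected with a construct against Cx43 for 36 h per the design text, while the protein check in the protocol was made at 48 h. Wild-type samples (6) were untreated per the labels, which list no control siRNA. Replicates 3, 4 and 6 of wild type were used with all null and siRNA samples, 11 samples in all.

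The values are the authors' log2 values, each column centred on a median of 0, so a value of 4 lies well above the typical probe of that sample and a negative value below it. Across probes, the 11 used samples followed their own mean at r = 0.891 to 0.947 (each column left out of the mean in turn), while replicates 1, 2 and 5 of wild type, which were left out, reached 0.333, 0.337 and -0.0784. Between 53.1% and 79.8% of probes had a value in a used sample. Null and siRNA replicates 1 and 2 differed as a set from replicates 3 and 4, and wild type is present only in replicates 3 and above, so the fit carried a term for the set and one for the dye. The labels do not say what the sets are. Consecutive replicates of a group carry opposite dyes and correlated across probes at 0.99 (null 1 and 2), 0.987 (siRNA 1 and 2), 0.975 (siRNA 3 and 4), 0.941 (wild type 3 and 4) and 0.923 (null 3 and 4). Whether such a pair shares an array is not stated, and each call on the 10 genes is given with these pairs as a random block too. The labels do not say which culture gave which sample, so a p-value here weighs a difference against the spread among the samples, and part or all of that spread may be technical.

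The target Gja1 read -1.17, -1.06, 2.82 and 3.03 in null replicates 1 to 4 and 1.93, 2.14, 5.47 and 5.70 in siRNA replicates 1 to 4, against 6.08, 7.53 and 4.82 in wild-type replicates 3, 4 and 6. All null samples lie below wild type, and each lies below the siRNA sample of the same number. It fell by 3.31 ± 0.58 (SE, log2, limma adjusted p = 0.0401) in the null samples against wild type, a call that passed under 9 of 20 alternatives. It was lost with array pairs as a random block (adjusted p = 0.298), without the set term (-5.21, 0.618), with all 14 samples (0.0811) and on leaving out null replicate 2, 3 or 4, siRNA replicate 1, 3 or 4 or wild-type replicate 3 or 4 (0.0515 to 0.232). In the siRNA samples its fitted change was -0.41 ± 0.58 (adjusted p = 0.732), and the labelled knockdown is not seen as a called fall at this probe. As a check of the tissue, 9 of 10 astrocyte markers had a value in at least 1 used sample, and the defining marker Gfap, an intermediate filament gene, had none.

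**Figure D1:**
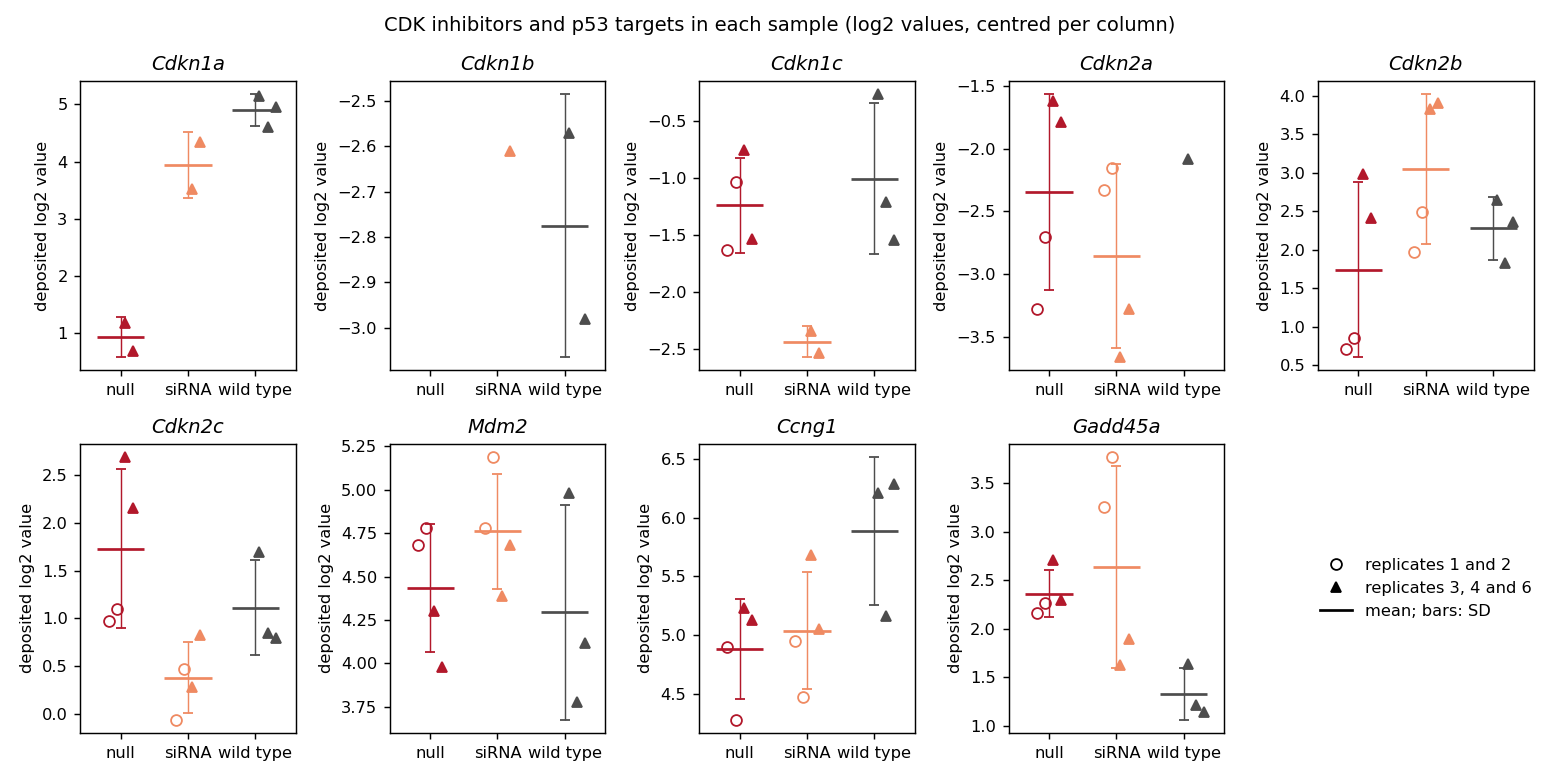
Deposited log2 values of 9 genes (y axis) in null, siRNA and wild-type samples (x axis), with open circles for replicates 1 and 2, triangles for replicates 3, 4 and 6, lines for means and bars for SD. Cdkn1a lies at 0.69 to 1.18 in the null samples that measured it and at 4.60 to 5.15 in wild type.

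Cdkn1a, which encodes p21, the main effector of p53-driven arrest, was low in the null astrocytes. It read 1.18 and 0.69 in null replicates 3 and 4 and 3.53 and 4.35 in siRNA replicates 3 and 4, against 5.15, 4.60 and 4.95 in wild-type replicates 3, 4 and 6. Both null samples lie below both siRNA samples, and both siRNA samples below all wild-type samples, with no overlap. The means were 0.94 ± 0.35 (SD, n = 2) in null, 3.94 ± 0.58 (SD, n = 2) in siRNA and 4.90 ± 0.28 (SD, n = 3) in wild-type samples. In null against wild type Cdkn1a fell by 3.97 ± 0.48 (SE, log2), a 15.7-fold difference (limma adjusted p = 0.0203), the 15th smallest p of 20369 probes. In null against siRNA samples it fell by 3.01 ± 0.52 (8.03-fold, adjusted p = 0.0152). The siRNA change against wild type was -0.96 ± 0.48 (adjusted p = 0.272), which did not pass.

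The calls on Cdkn1a rest on 7 values, all from replicates 3 and above, because no null or siRNA replicate 1 or 2 has a value for this probe. Of 2895 probes measured in all 7 of those samples at a mean at or above that of Cdkn1a, 38 (1.31%) likewise lacked a value in all 4 null and siRNA samples of replicates 1 and 2. Neither call held when array pairs were a random block (adjusted p = 0.199 against wild type and 0.144 against siRNA), without the set term (0.552 and 0.165) or with all 14 samples (0.0656 and 0.108), although the change itself stayed between -3.98 and -3.97 and at -3.01. With all 7 values from 1 set, the set term does not enter this probe's own fit. Dropping it raised the SE against wild type from 0.48 to 0.59, because limma shares its estimate of spread across probes. Leaving out wild-type replicate 3 gave -3.76 against wild type (adjusted p = 0.0514), and leaving out replicate 4 gave -4.11 (0.108). Without any 1 of null or siRNA replicates 3 and 4 too few values were left to test it.

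Cdkn1c, which encodes p57, an imprinted inhibitor that acts in differentiating cells, was lowest in the siRNA samples. It read -1.63, -1.03, -0.75 and -1.53 in null replicates 1 to 4 and -2.34 and -2.53 in siRNA replicates 3 and 4, against -0.26, -1.21 and -1.54 in wild-type replicates 3, 4 and 6. The siRNA values lie below every null and wild-type value, while null and wild type overlap. Its change in siRNA against wild type was -1.50 ± 0.49 (SE, adjusted p = 0.0954) and in null against siRNA 1.29 ± 0.53 (adjusted p = 0.169), and neither passed. With the replicate number as a block the siRNA change was -1.70 (adjusted p = 0.0466), and with array pairs as a random block -1.44 (0.393). In null against wild type the change was -0.21 ± 0.49 (adjusted p = 0.884).

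Cdkn1b, which encodes p27, a brake on entry into the cell cycle, had too few values to be tested. It had a value of -2.61 in siRNA replicate 4, against -2.57 and -2.98 in wild-type replicates 3 and 6, and none in the null samples. Why values are missing is not stated, so no level can be read from the absence.

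Cdkn2b, which encodes p15, an INK4 inhibitor known as a target of TGF-beta signalling, was high in the siRNA samples. It read 0.71, 0.85, 2.99 and 2.41 in null replicates 1 to 4 and 1.97, 2.49, 3.83 and 3.91 in siRNA replicates 1 to 4, against 2.64, 1.83 and 2.36 in wild-type replicates 3, 4 and 6. Each siRNA sample lies above the null sample of the same number. Taken without regard to the set the groups overlap, since replicates 1 and 2 read lower than 3 and 4, by 1.92 in null and 1.64 in siRNA samples. Cdkn2b rose in siRNA against wild type by 1.64 ± 0.39 (SE, log2, 3.12-fold, limma adjusted p = 0.0274). In null against siRNA samples it fell by 1.31 ± 0.33 (2.48-fold, adjusted p = 0.0376), and in null against wild type its change was 0.33 ± 0.39 (adjusted p = 0.729).

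Within replicates 3 and above alone neither call on Cdkn2b held: siRNA minus wild type was 1.53 ± 0.48 (SE, adjusted p = 0.0579) and null minus siRNA -1.17 ± 0.52 (adjusted p = 0.162). Treating array pairs as a random block gave the rise an adjusted p of 0.188 and the null against siRNA difference 0.275. Without the set term the siRNA change was 0.75 (adjusted p = 0.748) and null minus siRNA -1.31 (0.474), and with all 14 samples they were 2.90 (0.0242) and -1.31 (0.379). Leaving out null replicate 1, siRNA replicate 3 or 4 or wild-type replicate 4 ended the call against wild type (adjusted p 0.0533 to 0.147), and leaving out any 1 null or siRNA replicate ended the call between null and siRNA (0.0549 to 0.122).

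Cdkn2c, which encodes p18, went the other way between the manipulated groups. It read 0.97, 1.10, 2.69 and 2.15 in null replicates 1 to 4 and -0.06, 0.47, 0.28 and 0.83 in siRNA replicates 1 to 4, against 1.69, 0.85 and 0.80 in wild-type replicates 3, 4 and 6. All 4 null samples lie above all 4 siRNA samples, and wild type overlaps both. Null minus siRNA was 1.35 ± 0.37 (SE, log2), just outside the threshold (adjusted p = 0.0538), and passed with the replicate number as a block (0.0334) but not with array pairs (0.316). The changes against wild type were 1.03 ± 0.45 in null (adjusted p = 0.264) and -0.32 ± 0.45 in siRNA samples (adjusted p = 0.734).

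Cdkn2a, the locus of p16 and of ARF, an inhibitor of Mdm2, had 2 probes and was not tested in the fit, since 1 wild-type sample measured it. The better-measured probe read -3.28, -2.70, -1.62 and -1.79 in null replicates 1 to 4 and -2.33, -2.15, -3.66 and -3.28 in siRNA replicates 1 to 4, against -2.08 in wild-type replicate 3. The null samples lie below the siRNA samples in replicates 1 and 2 and above them in replicates 3 and 4. The other probe had 1 value among the used samples, -1.86 in null replicate 4. Cdkn2d, the remaining INK4 gene, encodes p19 and had 2 probes with no call in any comparison, their changes running from -0.88 (siRNA against wild type, adjusted p = 0.271) to 0.87 (null against siRNA, adjusted p = 0.177).

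Of the p53 targets among the 10 genes, Mdm2, Ccng1 and Gadd45a were not called in any comparison of the groups. Promoter sequence is shown for Cdkn1a and these targets as a description. Whether matches in it bear on the calls was not tested, and sequence outside the windows given was not searched. Each run gives 250 bases before and 50 after an annotated transcript start (RefSeq, GRCm38.p6), 5′ to 3′ on the gene's strand. Capitals mark matches to the p53 half-site consensus, searched on both strands, where overlapping matches count once per position.
Cdkn1a, upstream start, chr17:29090729-29091028, + strand: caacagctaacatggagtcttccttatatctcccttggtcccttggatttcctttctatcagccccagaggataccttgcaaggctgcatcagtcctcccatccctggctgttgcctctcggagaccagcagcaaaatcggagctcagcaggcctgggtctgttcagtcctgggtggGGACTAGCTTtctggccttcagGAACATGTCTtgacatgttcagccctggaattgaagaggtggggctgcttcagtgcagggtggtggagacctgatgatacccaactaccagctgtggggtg
Mdm2, chr10:117710709-117711008, - strand: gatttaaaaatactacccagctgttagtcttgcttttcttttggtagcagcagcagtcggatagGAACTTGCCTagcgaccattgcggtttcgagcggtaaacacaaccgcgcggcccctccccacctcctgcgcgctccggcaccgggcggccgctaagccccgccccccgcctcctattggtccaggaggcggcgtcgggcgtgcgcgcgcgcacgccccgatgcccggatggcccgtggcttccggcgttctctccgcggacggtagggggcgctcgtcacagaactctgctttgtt
Ccng1, chr11:40755237-40755536, - strand: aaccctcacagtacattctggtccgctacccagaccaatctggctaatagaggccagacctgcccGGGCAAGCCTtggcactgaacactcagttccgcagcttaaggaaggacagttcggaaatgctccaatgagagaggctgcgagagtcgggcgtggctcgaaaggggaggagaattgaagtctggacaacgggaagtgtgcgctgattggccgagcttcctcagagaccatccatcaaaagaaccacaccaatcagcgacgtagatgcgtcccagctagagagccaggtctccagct
Gadd45a, chr6:67037358-67037657, - strand: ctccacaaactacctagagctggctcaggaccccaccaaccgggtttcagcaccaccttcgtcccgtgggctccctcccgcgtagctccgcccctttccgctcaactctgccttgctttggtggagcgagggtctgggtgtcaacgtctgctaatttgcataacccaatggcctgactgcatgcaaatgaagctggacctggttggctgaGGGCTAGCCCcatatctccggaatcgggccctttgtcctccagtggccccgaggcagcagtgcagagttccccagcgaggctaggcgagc

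The Cdkn1a window holds 2 matches and the other 3 windows 1 each, while 8.36% of 32851 promoters of this length hold at least 1. The second annotated start of Cdkn1a (chr17:29093519-29093818) holds no match, nor do the windows given for Cdkn1b, Cdkn2a, Cdkn2b and Cdkn2c, while the window of Trp53 itself holds 1. Promoters of 9 of the 10 genes were matched by symbol, and Cdkn1c had no entry. A match is a description of letters and not a site.

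Mdm2, the ubiquitin ligase that holds p53 down, kept to a narrow range. It read 4.68, 4.78, 4.30 and 3.98 in null replicates 1 to 4 and 4.78, 5.19, 4.39 and 4.68 in siRNA replicates 1 to 4, against 4.98, 3.78 and 4.12 in wild-type replicates 3, 4 and 6. The groups overlap throughout. Its changes were -0.15 ± 0.41 (SE, adjusted p = 0.903) in null against wild type, 0.17 ± 0.41 (adjusted p = 0.85) in siRNA against wild type and -0.32 ± 0.34 (adjusted p = 0.603) in null against siRNA samples.

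Ccng1, which encodes cyclin G1, a p53 target that recruits a phosphatase to Mdm2, read 4.90, 4.28, 5.23 and 5.13 in null replicates 1 to 4 and 4.95, 4.47, 5.68 and 5.05 in siRNA replicates 1 to 4, against 6.21, 5.16 and 6.29 in wild-type replicates 3, 4 and 6. In both manipulated groups most samples lie below wild type, and the groups overlap. Replicates 1 and 2, a set without wild type, read lower than 3 and 4, by 0.58 in null and 0.66 in siRNA samples. Within replicates 3 and above the null mean lay 0.71 and the siRNA mean 0.52 below wild type. The changes were -0.77 ± 0.40 (SE, adjusted p = 0.347) in null and -0.62 ± 0.40 (adjusted p = 0.386) in siRNA samples against wild type. Null minus siRNA was -0.15 ± 0.33 (adjusted p = 0.82).

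Gadd45a, a growth arrest gene induced by DNA damage, read 2.16, 2.27, 2.71 and 2.30 in null replicates 1 to 4 and 3.25, 3.77, 1.63 and 1.90 in siRNA replicates 1 to 4, against 1.64, 1.22 and 1.14 in wild-type replicates 3, 4 and 6. All null samples lie above all wild-type samples, and siRNA overlaps wild type through its replicate 3. The changes were 0.66 ± 0.51 (SE, adjusted p = 0.564) in null and 0.94 ± 0.51 (adjusted p = 0.297) in siRNA samples against wild type. Within replicates 3 and above the null mean lay 1.17 and the siRNA mean 0.43 above wild type. Of Mdm2, Ccng1 and Gadd45a none was called with array pairs as a random block (adjusted p 0.543 to 0.977 over the 3 comparisons).

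**Figure D2:**
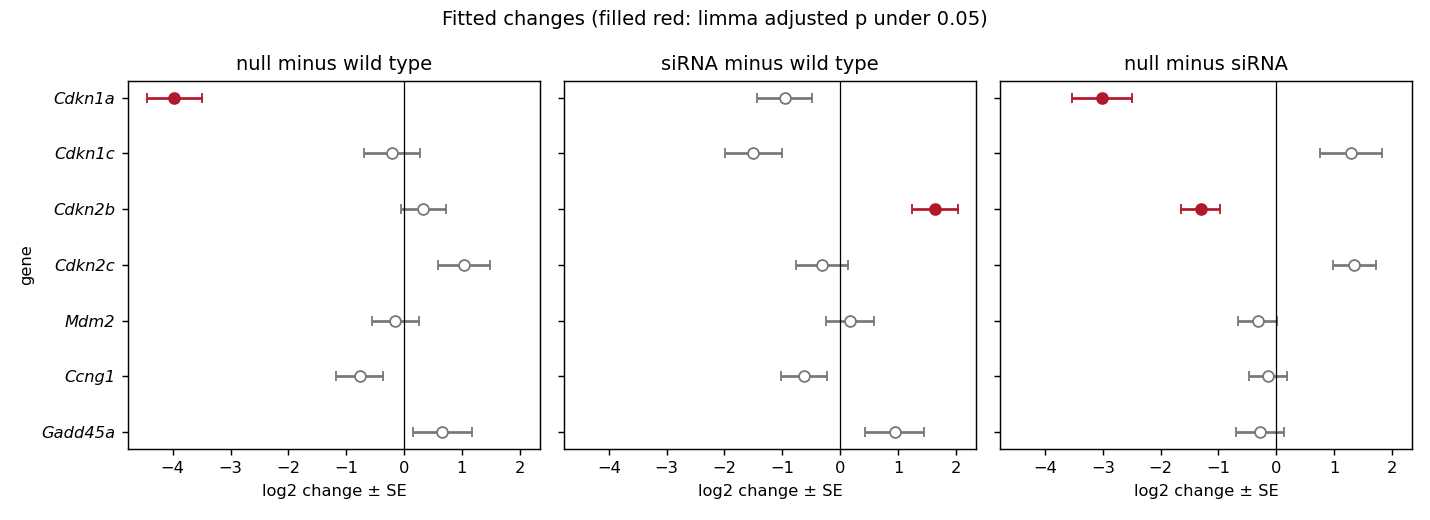
Fitted log2 change with its SE (x axis) of the 7 tested genes (y axis) in null minus wild type, siRNA minus wild type and null minus siRNA; filled red points passed at adjusted p under 0.05. Cdkn1a passed at -3.97 and -3.01 in both comparisons of null samples, and Cdkn2b at 1.64 in siRNA against wild type and -1.31 in null against siRNA.

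In all, 1 of the 7 tested genes fell in null against wild type (Cdkn1a) and none rose, where 0.118% of 20369 probes were called lower and 0.471% higher. The siRNA samples showed 1 of 7 higher than wild type (Cdkn2b) and none lower, where 5.42% of 20352 probes were called higher and 1.96% lower. In null against siRNA 2 of 7 fell (Cdkn1a and Cdkn2b) and none rose, where 2.26% of 20375 probes were called lower and 3.61% higher. At an unadjusted p under 0.05 there were 2, 2 and 4 of the 7 in these comparisons, where 17%, 23.4% and 24.8% of all probes had such a p. The median change of the 7 was -0.15, -0.32 and -0.28 in the same order, beside 0.269, 0.134 and 0.108 over all tested probes. The comparisons share samples, so their calls are not independent. Of the 7, limma called 0 in each comparison when array pairs were a random block (1, 1 and 3 at an unadjusted p under 0.05), with 1, 204 and 106 probes called over the whole array. It also called 0 of the 7 without the set term (2, 2 and 3 at an unadjusted p under 0.05), with 0, 66 and 75 probes over the whole array. With the replicate number as a block it called 1, 2 and 3 of the 7, the additions being Cdkn1c and Cdkn2c, and 379, 2006 and 2412 probes over the whole array.

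**Figure D3:**
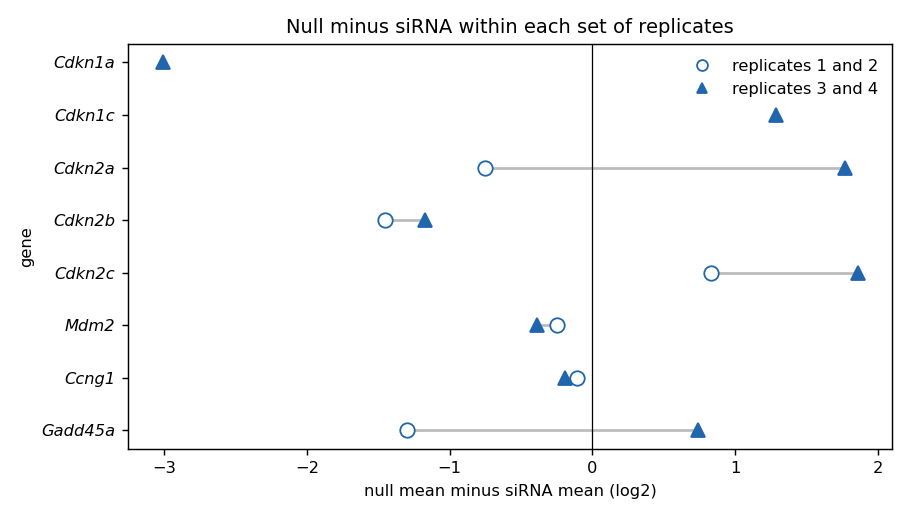
Null mean minus siRNA mean in log2 units (x axis) for 8 genes (y axis), with open circles for replicates 1 and 2 and triangles for replicates 3 and 4. Cdkn2b and Cdkn2c keep their side of 0 in both sets, while Cdkn2a and Gadd45a lie on opposite sides.

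The difference between null and siRNA samples was compared between the sets of replicates for the 6 probes measured in all 8 of these samples. Cdkn2b differed by -1.45 in replicates 1 and 2 and by -1.17 in replicates 3 and 4, and the test of the change between sets gave adjusted p = 0.692. Cdkn2c differed by 0.83 and 1.86 (adjusted p = 0.154), Mdm2 by -0.25 and -0.39 (adjusted p = 0.835) and Ccng1 by -0.11 and -0.19 (adjusted p = 0.903). For Cdkn2a the difference was -0.75 in replicates 1 and 2 and 1.77 in replicates 3 and 4 (adjusted p = 0.00756), and for Gadd45a -1.30 and 0.74 (adjusted p = 0.0176). Such a change between sets was common, with 21.2% of 14728 probes called. If consecutive replicates share an array, each mean in this test comes from 1 array. With array pairs as a random block, an alternative added after seeing the data at the correlation found over 11 samples, neither passed (adjusted p = 0.145 for Cdkn2a and 0.229 for Gadd45a), and 0.625% of probes were called.

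Other genes of the pathway were described from lists, each gene by its highest-reading tested probe. Of 32 tested p53 targets beyond those above, 0 rose and 0 fell in null against wild type by limma (4 at an unadjusted p under 0.05, where 0.589% of all probes were called), and 21 had positive changes, with a median of 0.28. The smallest p belonged to Rprm, a G2 arrest gene (-1.06 ± 0.42, SE, adjusted p = 0.217), and Gadd45b, a stress-induced relative of Gadd45a (1.37 ± 0.52, adjusted p = 0.219). Against wild type 2 of the 32 rose and 1 fell in the siRNA samples (7.38% of all probes called). Igfbp3, which binds insulin-like growth factors, rose by 3.01 ± 0.56 (adjusted p = 0.00972). It read 2.19, 2.21, 4.39 and 4.33 in null replicates 1 to 4 and 5.16, 5.39, 5.08 and 5.14 in siRNA replicates 1 to 4, against 1.90, 3.25 and 3.07 in wild-type replicates 3, 4 and 6, with every siRNA sample above all others. Thbs1, the matrix protein thrombospondin-1, rose by 2.75 ± 0.71 (adjusted p = 0.0496), and Txnip, an inhibitor of thioredoxin, fell by 1.34 ± 0.36 (adjusted p = 0.0459). None of these 3 passed when array pairs were a random block (adjusted p 0.0573 to 0.26). Igfbp3 passed under 18 of 20 alternatives, Thbs1 under 6 of 15 and Txnip under 5 of 20. The Thbs1 call rests on replicates 3 and above, since null and siRNA replicates 1 and 2 had no value for it.

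Between null and siRNA samples 1 of the 32 targets rose and 2 fell (5.87% of all probes called). Plk2, a stress-induced kinase, fell by 2.20 ± 0.38 (adjusted p = 0.00821), Igfbp3 fell by 1.91 ± 0.47 (adjusted p = 0.0355) and Polk, a translesion DNA polymerase, rose by 2.39 ± 0.48 (adjusted p = 0.0168). Plk2 read -0.40, -0.09, 0.93 and 0.90 in null replicates 1 to 4, against 1.09, 2.18, 3.13 and 3.75 in siRNA replicates 1 to 4, with each null sample below all siRNA samples. None of the 3 passed with array pairs (adjusted p 0.0993 to 0.189), while Plk2 passed under 18, Polk under 16 and Igfbp3 under 10 of 21 alternatives.

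Of 16 tested regulators of p53, 0 were called in null against wild type by limma (4 at an unadjusted p under 0.05), with Trp53bp1, a DNA break sensor, at 2.46 ± 0.52 (SE, adjusted p = 0.0641) and the checkpoint kinase Chek2 at -1.21 ± 0.49 (adjusted p = 0.242). Trp53bp1 rose in siRNA against wild type by 2.48 ± 0.52 (adjusted p = 0.0238, and 0.112 with array pairs, passing under 11 of 17 alternatives), the only call among the 16 there. Between null and siRNA samples 0 of 16 were called by limma (1 at an unadjusted p under 0.05), with the p53 relative Trp63 at 1.89 ± 0.60 (adjusted p = 0.0911) and the nucleolar protein gene Npm1 at -1.63 ± 0.88 (adjusted p = 0.285). Over the whole array 0.589%, 7.38% and 5.87% of probes were called in these 3 comparisons. At an unadjusted p under 0.05 by limma the shares were 17%, 23.4% and 24.8%. Trp53bp1 had no value in null replicates 1 and 2 or siRNA replicate 1.

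The cyclins, kinases and other partners of the CDK inhibitors were counted beside all tested probes. Of all probes 0.589% were called in null against wild type, 7.38% in siRNA against wild type and 5.87% in null against siRNA. In the same order 17%, 23.4% and 24.8% had an unadjusted p under 0.05 by limma. Of 32 tested, limma called 0 in null against wild type (4 at an unadjusted p under 0.05), where the CDK-binding Cks2 had -1.13 ± 0.36 (SE, adjusted p = 0.135) and cyclin D3, Ccnd3, 1.04 ± 0.37 (adjusted p = 0.172). In the siRNA samples 1 was called against wild type, the mitotic phosphatase gene Cdc25c, which fell by 1.51 ± 0.39 (adjusted p = 0.0378, and 0.238 with array pairs, passing under 7 of 20 alternatives). Between null and siRNA samples limma called 0 (2 at an unadjusted p under 0.05), with cyclin E1, Ccne1, at -1.16 ± 0.35 (adjusted p = 0.068) and the phosphatase Cdc25a at 0.70 ± 0.31 (adjusted p = 0.189).

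Of 24 tested proliferation genes limma called 0 in null against wild type (4 at an unadjusted p under 0.05), with cyclin F, Ccnf, at 2.39 ± 0.50 (SE, adjusted p = 0.0549) and the replication helicase gene Mcm2 at 2.00 ± 0.45 (adjusted p = 0.0618). Both rose in the siRNA samples against wild type, Mcm2 by 1.87 ± 0.45 (adjusted p = 0.0292) and Ccnf by 2.03 ± 0.50 (adjusted p = 0.0305), and neither passed with array pairs (0.125 and 0.221), each passing under 12 of 20 alternatives. In null against siRNA 1 rose, the centromeric histone gene Cenpa, by 1.64 ± 0.33 (adjusted p = 0.0177, and 0.16 with array pairs, passing under 14 of 21 alternatives). Beside these counts, 0.589% of all probes were called in null against wild type, where 17% had an unadjusted p under 0.05 by limma. In siRNA against wild type 7.38% were called and in null against siRNA 5.87%. The mean of the 23 proliferation genes measured in every used sample ran from 1.27 to 2.15 in null, from 0.54 to 2.44 in siRNA and from 1.43 to 2.27 in wild-type samples, which overlap.

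Of 9 tested genes linked to senescence and its secretion, limma called 0 in null against wild type (3 at an unadjusted p under 0.05), with the chromatin gene Hmgb2 at 1.33 ± 0.40 (SE, adjusted p = 0.115) and the lamin gene Lmnb1 at 1.57 ± 0.50 (adjusted p = 0.14). In the siRNA samples the cytokine gene Il6 rose by 4.23 ± 0.49 against wild type (adjusted p = 0.00165), the chemokine gene Ccl2 rose by 3.88 ± 0.59 (adjusted p = 0.00461) and Igfbp5 fell by 1.51 ± 0.41 (adjusted p = 0.0441; its other probe had 0.18). In null against siRNA Il6 fell by 4.19 ± 0.53, Ccl2 fell by 4.09 ± 0.46, and Igfbp5 rose by 1.53 ± 0.34. Null replicates 3 and 4 had no value for Il6, so its null side rests on -2.92 and -2.87 in replicates 1 and 2. Ccl2 had no value in siRNA replicate 4. Il6 and Ccl2 also passed with array pairs in both comparisons, while Igfbp5 passed under 6 of 20 alternatives against wild type and 9 of 21 between null and siRNA. The shares of all probes called were 0.589% in null against wild type, 7.38% in siRNA against wild type and 5.87% in null against siRNA. In null against wild type 17% had an unadjusted p under 0.05 by limma.

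**Figure D4:**
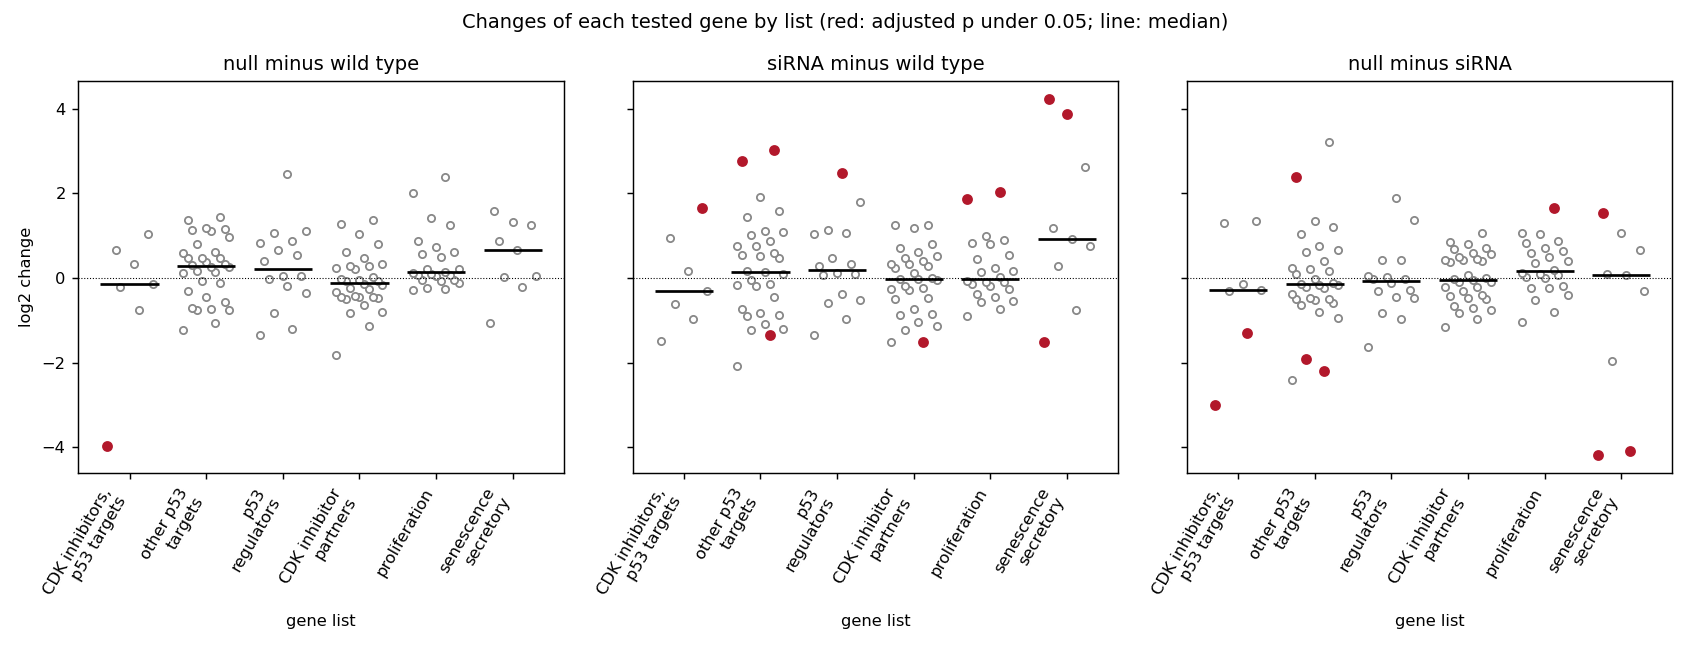
Log2 change (y axis) of each tested gene by list (x axis) in null minus wild type, siRNA minus wild type and null minus siRNA; red points passed at adjusted p under 0.05 and black lines are medians. Cdkn1a at -3.97 is the 1 called gene of the 6 lists in null minus wild type.

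Markers of interferon signalling and of some other cell types were called in siRNA against wild type, while none of these were called in null against wild type. The part of such markers in the results above was not tested. In bulk samples fewer cells of a type and less RNA per cell cannot be told apart. Over all probes 5.42% were called higher and 1.96% lower in siRNA against wild type, and 0.471% higher and 0.118% lower in null against wild type. The mean of 7 interferon response genes ran from -0.11 to 1.66 in null, from 4.82 to 5.70 in siRNA and from -0.48 to 1.42 in wild-type samples, and 8 of 9 tested rose in siRNA against wild type. The 7 microglia markers with a probe averaged 2.33 to 4.81 in null, 1.53 to 2.43 in siRNA and 3.59 to 4.13 in wild-type samples, and 5 of 7 fell in siRNA and 0 in null against wild type, where 2 had an unadjusted p under 0.05 by limma and the median change was -0.73. The 6 fibroblast markers measured throughout averaged -0.61 to 1.97 in null, -0.74 to 1.05 in siRNA and 1.56 to 3.42 in wild-type samples, and of 9 tested 3 fell in siRNA and 0 in null against wild type. In that comparison of null samples, which carries the Cdkn1a call, 5 of the 9 fibroblast markers had an unadjusted p under 0.05 by limma, where 17% of all probes did. Thy1, among the 5, rose by 1.26 ± 0.41 (SE). Of the 9, 2 had positive changes and the median change was -1.84. Of 6 tested neuronal markers 3 had such a p, and 4 of the 6 had positive changes. The markers measured throughout were 5 of 10 for the oligodendrocyte lineage, 3 of 10 for neurons and 3 of 8 for endothelium. Those of the oligodendrocyte lineage averaged 1.76 to 2.89 in null, 0.70 to 2.20 in siRNA and 2.16 to 2.94 in wild-type samples. In the same order the neuronal ones averaged 0.45 to 1.23, -0.18 to 0.60 and 1.07 to 1.42, and the endothelial ones -0.82 to 0.59, -1.40 to -0.75 and -1.14 to 0.40. The 6 astrocyte markers measured throughout averaged 2.62 to 3.85 in null, 1.76 to 3.99 in siRNA and 3.84 to 4.41 in wild-type samples. They include the target Gja1, whose low values in null samples pull that mean down, so it cannot show a change in astrocyte content. Of 8 tested astrocyte markers Gja1 alone was called in null against wild type, 5 had positive changes and the median change was 0.54. In siRNA against wild type 1 of the 8 was called higher and 1 lower, with a median change of -0.52. These were Aldh1l1 at 1.82 ± 0.47 (SE, limma adjusted p = 0.0374) and Aldoc at -2.34 ± 0.57 (0.0304).

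The genes whose values ran most like those of the 5 completely measured genes were found among 7711 genes, by Pearson correlation over the 11 samples. These samples share sets, dyes and groups, so the correlations describe columns only. Cdkn2b, with the widest range (3.20), was most like Rabepk (r = 0.986), Mageb16 (0.98) and Cd1d1 (0.979), and Cdkn2c, with a range of 2.74, most like Cnmd (0.96), Cc2d1b (0.953) and Naaa (0.952). Gadd45a was most like Ttn (0.942), Adss (0.935) and Epha5 (0.933), Ccng1 most like Nbeal1 (0.901), Cacnb4 (0.887) and Cstf2t (0.88), and Mdm2, with the narrowest range (1.41), most like Wasf2 (0.937), Pars2 (0.936) and Trafd1 (0.929).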

How the data were processed

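Total RNA was labelled with Cy3 or Cy5 and hybridised to spotted mouse oligonucleotide arrays, per the labels' protocols and the design text. The deposited values are log2 values made by the authors, 1 for each probe in each sample, and every column has a median of 0. Scanner, background correction, filter and normalization were not given in those sources. Signal over background is unknown. The number of arrays limits the precision. Missing values carry no reason. Probes were named through the platform's annotation, with symbols checked by gene identifier against RefSeq (GRCm38.p6).

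Samples were grouped by title. A linear model was fitted with limma 3.58.1 under R 4.3.3 (lmFit, then eBayes) to the log2 values of 11 samples with group, dye and replicate set (1 and 2, or 3 and above). Probes with at least 2 values in each group and an estimable contrast were tested, two-sided, with Benjamini-Hochberg adjustment over all probes per contrast, and called at adjusted p under 0.05. The fit was tested on simulated data with independent samples and an additive set effect. That test does not cover correlated pairs or group differences that change between sets. A list gene is represented by its tested probe with the highest mean. The genes and lists were chosen with earlier results of these data known. Named list genes are called ones, up to 6 per list and contrast by p, or else the 2 with the smallest p, and Gja1 and Cdkn2d were named whatever their values. The comparison between replicate sets, and its fit with array pairs, were added after seeing the data.

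Replicate numbers come from the titles. Deviations from group means of same-numbered samples correlated at 0.565 to 0.647 between null and siRNA, 0.305 and 0.387 between null and wild type and 0.121 and 0.161 between siRNA and wild type. Same-numbered samples also share the dye and the set, so these correlations cannot tell pairing from dye and set. The replicate block takes the numbers to pair the samples, which the labels do not state. Null and siRNA samples of the same set with different numbers reached 0.399 to 0.598. The paired fit and the other alternatives are given in the closing section.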

Additional observations from a re-analysis of the deposited data

Results flagged for a closer look

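Null minus siRNA differed between the sets of replicates for 2 genes. For Cdkn2a, null lay below siRNA in replicates 1 and 2 (-0.75) and above it in replicates 3 and 4 (1.77), a difference of -2.52 ± 0.39 (SE, limma adjusted p = 0.00756), with every null sample on 1 side in each set. For Gadd45a the values were -1.30 and 0.74, a difference of -2.04 ± 0.42 (SE, limma adjusted p = 0.0176), again with every sample on 1 side in each set. Of all 14728 probes compared in this way 21.2% were called. Neither gene passed with array pairs as a random block (adjusted p = 0.145 and 0.229), where 0.625% were called, and what distinguishes the sets is not given in the labels.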

How the results depend on the processing

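The calls depended on how the replicate sets and possible array pairs were treated, and the causes were not tested. Over the whole array, 120 probes were called in null against wild type, 1502 in siRNA against wild type and 1196 in null against siRNA. Without the set term these were 0 (limma, 1319 at an unadjusted p under 0.05), 66 and 75, with array pairs as a random block 1, 204 and 106, and with all 14 samples as deposited, which adds the columns that do not follow the others, 1, 778 and 160. The replicate block gave 379 in null against wild type and 2412 in null against siRNA, and replicates 3 and above alone gave 877 and 1893. In null against wild type quantile normalization gave 308 and complete probes 73. Replicates 1 and 2 alone, with 1 residual degree of freedom per probe, gave 8004 in null against siRNA (49.2% of those tested). Leaving out 1 replicate gave 1 to 223 in null against wild type, 225 to 1590 in siRNA against wild type and 303 to 1840 in null against siRNA.

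Of the 7 tested genes, limma called 0 in each comparison without the set term and with array pairs, and 0 in null against wild type and null against siRNA with all 14 samples (5 and 1 at an unadjusted p under 0.05). Complete probes, which leave out Cdkn1a, gave 0 in null against wild type (1 at an unadjusted p under 0.05). In siRNA against wild type the replicate block called 2 (Cdkn1c and Cdkn2b) and replicates 3 and above 0 (2 at an unadjusted p under 0.05). Replicates 1 and 2 alone called, in null against siRNA, 4 of the 6 genes measured there: Cdkn2b, Cdkn2c and Gadd45a of the 7, and Cdkn2a, which only this fit tested. Leaving out 1 replicate gave 0 to 1, 0 to 1 and 0 to 3. The replicate block also added Cdkn2c in null against siRNA and Ccnf in null against wild type.

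Over 401 values of the 7 genes under the alternatives, 351 kept their direction and side of the threshold, 27 lost a call, 10 gained 1 and 13 changed direction. Over 777 values of the other named genes the counts were 604, 128, 21 and 24. In null against wild type without the set term Cdkn2b had -0.56, Mdm2 0.11 and the Cdkn2d probes 0.50 and 0.40. With all 14 samples Mdm2 had 2.07, Cdkn2d 0.80 and 1.88, Cks2 1.16 and Ccnf -0.13. The second Cdkn2d probe had 0.09 with array pairs or in replicates 3 and above and 0.02 with quantile normalization. Leaving out 1 replicate gave -0.42 to 0.17 for Cdkn1c, -0.38 to 0.28 for Mdm2 and -0.27 to 0.31 and -0.30 to 0.41 for Cdkn2d. In siRNA against wild type with all 14 samples Cdkn2c had 0.87, Cdkn2d 0.35 and 1.01, and the called Ccnf and Igfbp5 -0.49 and 1.85. There Cdkn2d had 0.05 without the set term, and leaving out 1 replicate gave -0.48 to 0.07 for Cdkn2c, -0.05 to 0.61 for Mdm2 and -1.10 to 0.25 for Gja1. In null against siRNA replicates 3 and above gave 0.74 for Gadd45a and 0 for Cdkn2d, and leaving out 1 replicate gave -0.61 to 0.09 for Gadd45a. In the comparison between replicate sets the calls on Cdkn2a and Gadd45a were lost with array pairs as a random block (adjusted p = 0.145 and 0.229).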
